A study of Drosophila melanogaster with 6 samples.

Results

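The cytoplasmic ribosomal protein genes of Drosophila melanogaster were followed through a depletion of Hakai in S2R+ cells. Members were the protein-coding genes whose symbols begin with RpL or RpS and a number, or with RpLP and a number, together with sta, which encodes a small subunit protein; genes named as like another member and the S6 kinases were left out. The annotation held 88 such genes, 50 of the large and 38 of the small subunit, and 83 of them were found among the 17559 gene identifiers in the files. The current identifiers of RpL19, RpL27A, RpL31, RpS10b and RpS12 were not matched, and these 5 genes were not analysed here. Of the 83 genes, 78 had enough counts to be tested, 45 of the large and 33 of the small subunit.

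S2R+ is an embryo-derived, hemocyte-like cell line, and the cells were of passages 8-10. Poly(A) RNA was sequenced from 3 control KD libraries, made from cells given 10 µg of dsRNA against LacZ, a bacterial gene, and from 3 Hakai KD libraries, made from cells given 10 µg of dsRNA against Hakai. All cells received the dsRNA 3 times over 6 days, and no group lacked dsRNA. Hakai is a RING-type E3 ubiquitin ligase and a component of the complex that writes m6A on mRNA, and the comparison asks which mRNAs changed in amount upon its loss. The study calls its libraries biological replicates and used the same controls for other knockdowns. No label says that the libraries came from separate cultures, so that the p-values below measure the spread between these libraries.

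Each cytoplasmic ribosome joins a small subunit, which reads the mRNA, to a large subunit, which forms the peptide bonds and holds the tunnel through which the new chain leaves. One copy of almost every ribosomal protein is needed per ribosome, so that these mRNAs are among the most abundant of growing cells, and in animals their translation responds to nutrients through TOR signalling and a pyrimidine tract at their start. In Drosophila, the loss of 1 gene copy of many of these proteins gives the Minute phenotype of slow growth and thin bristles.

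The libraries held between 16041353 and 17288912 counts. Hakai itself fell upon its KD. Normalized counts, which are counts scaled to a common library size, were 296, 330 and 298 in control KD and 68.1, 72.6 and 77.8 in Hakai KD, a log2 fold change of -2.08 (SE 0.094, edgeR quasi-likelihood test, Benjamini-Hochberg adjusted p = 1.8e-07). Of 8 hemocyte markers, 7 had enough counts to be tested, from eater, with a control KD mean of 117, to ush, with 8281, and NimC1 was at 3.94. Their sum was between 23274 and 23895 in control KD and between 23537 and 23935 in Hakai KD, although Hml and Pxn rose (log2 fold changes of 0.56 and 0.20, edgeR adjusted p = 0.0043 and 0.0037). The muscle and fat body markers had at most 7.36 in any library. Of the neuronal genes, elav averaged 419 over the controls, but nSyb and Syt1 only 4.95 and 4.53. The germline gene bam averaged 250, and vas and nos, the other germline markers listed, were not matched. Control KD replicate 1 stood apart from the other controls. A chi-square test of its counts gave 11.4 and 14.7 per degree of freedom against them, whereas the other control pair gave 2.25 and the Hakai KD pairs between 4.88 and 8.10.

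Upon Hakai KD, 21 of the 78 ribosomal protein mRNAs tested rose and none fell. The rises were small, from 11.0% to 29.1% with a median of 18.0%. Over all 7811 genes tested, 7.58% rose and 7.72% fell at the same threshold, an adjusted p under 0.05 by edgeR, or 15.3% in either direction. The 21 members make 26.9% of those tested. Among other genes with mean normalized counts of 1000 or more, 12.6% rose. These genes were not matched in level to the members, of which 69 had at least 10000. At an unadjusted p under 0.05, 36 members passed, beside 29.8% of all genes, and DESeq2 called 24 members higher and 1 lower, beside 5.26% and 4.98% of all genes.

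Most of the other members lay close to their control level. The log2 fold changes of the 78 members ran from -0.13 to 0.37, with a median of 0.084 and quartiles of 0.020 and 0.19, against a median of 0.001 over all genes tested. In 65 members the value was above 0 and in 13 below it. In 47 members the level in Hakai KD was within 10% of control KD. All Hakai KD libraries were above all control KD libraries for 21 members, as for 17.0% of all genes tested, and all were below for 1 member, as for 17.9% of all genes. The plot of log2 fold changes shows 77 of the members tested.

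**Figure D1:**
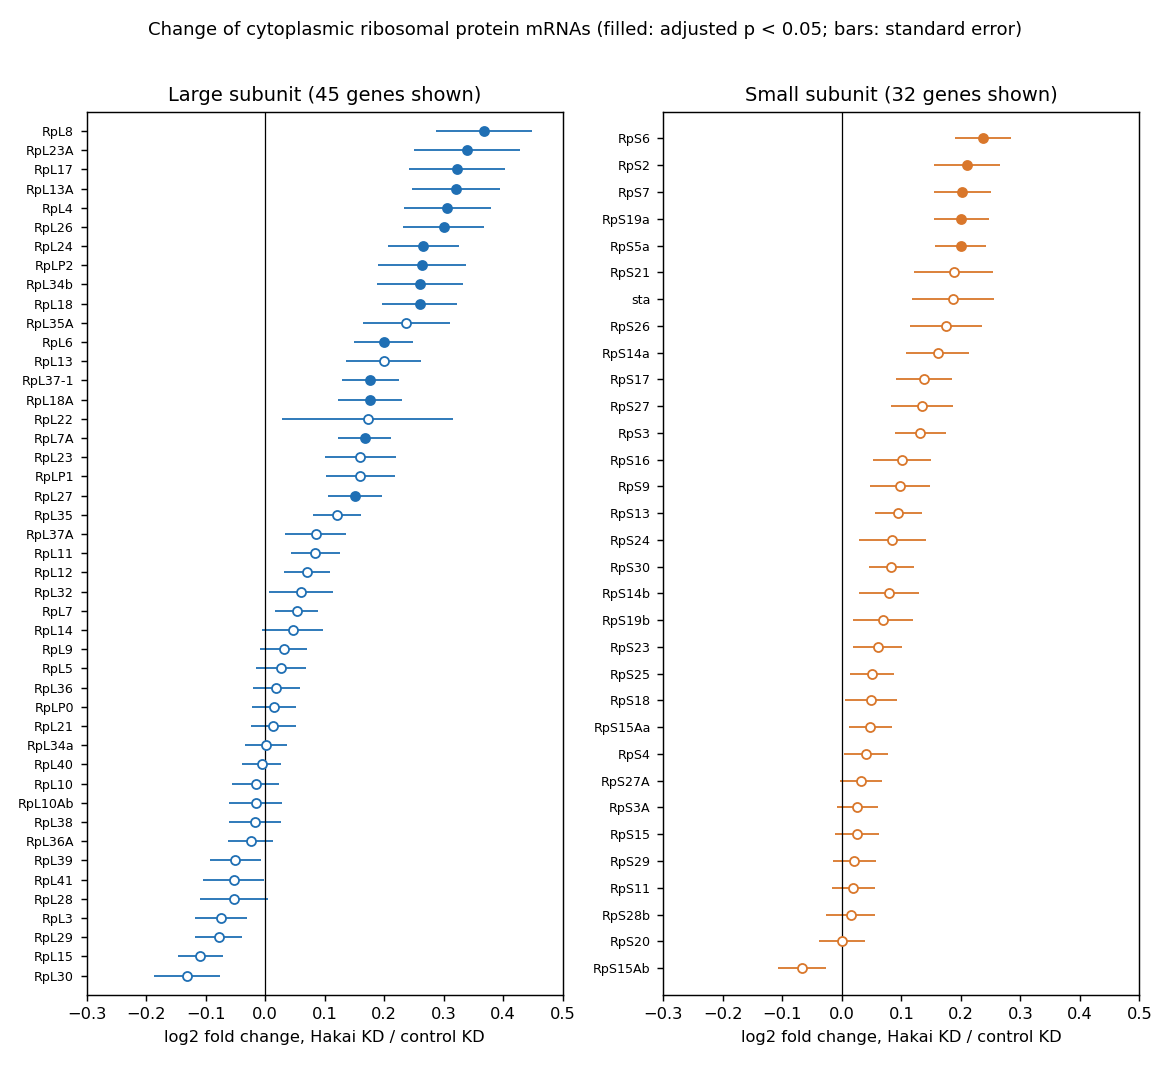
Log2 fold change of 77 cytoplasmic ribosomal protein mRNAs, Hakai KD over control KD (horizontal axis), for 45 large subunit genes on the left and 32 small subunit genes on the right, each in order. Filled points are the 20 genes shown with an adjusted p under 0.05, all of them above 0, and bars are standard errors.

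The number of calls depended on single libraries. Hakai KD replicate 1 was the lowest of the 3 Hakai KD libraries in 76 of the 78 members and in all 21 that rose. Its median member lay at -0.007 on the log2 scale relative to the control mean, whereas replicates 2 and 3 lay at 0.12 and 0.14, and the members above all 3 controls numbered 22, 64 and 61 in the 3 libraries. Control KD replicate 1 was the lowest control in 52 of 78 members and in 20 of the 21 that rose. Without Hakai KD replicate 1, 39 members were called higher, and without Hakai KD replicate 2 only 1, which was RpS6, while 5.48% and 4.22% of all genes were. Without Hakai KD replicate 3, control KD replicate 1 or control KD replicate 2, 11, 10 and 8 members were called higher, beside 6.61%, 5.67% and 4.16% of all genes. Leaving out control KD replicate 3 gave 19, beside 5.85%. No member was called lower in any of these 6 fits, which used edgeR.

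**Figure D2:**
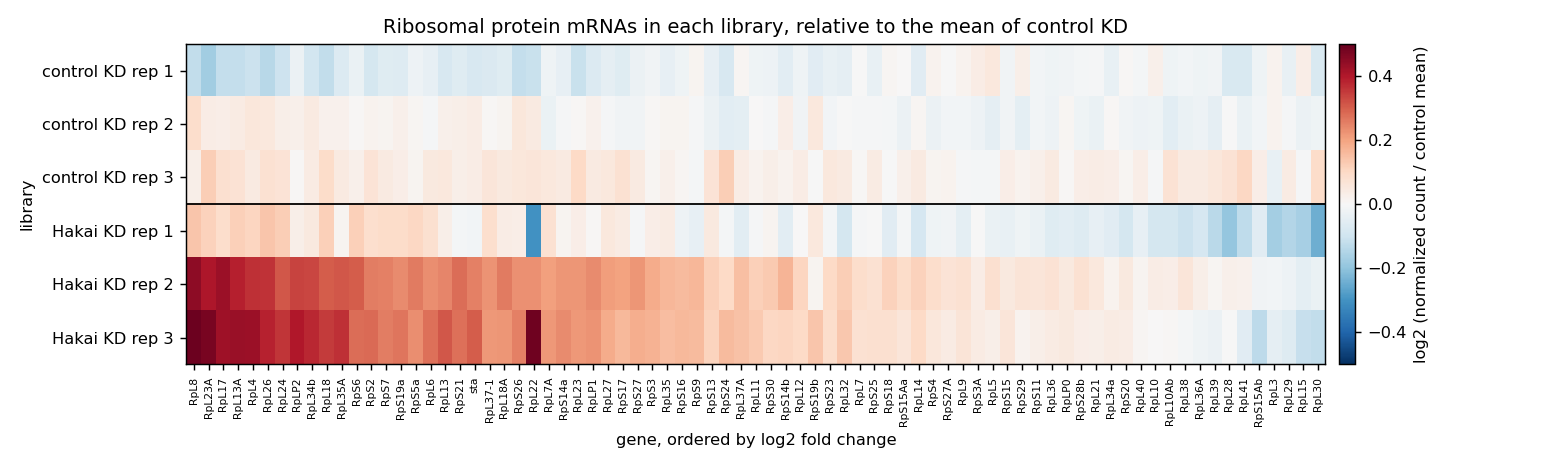
Normalized count of 77 ribosomal protein genes (columns, ordered by log2 fold change) in each of the 6 libraries (rows), as log2 of its ratio to the control KD mean. Hakai KD replicates 2 and 3 are above the control mean over most genes, and Hakai KD replicate 1 is the lowest Hakai KD library in most of them.

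Counted together, ribosomal protein genes took 10.8%, 10.8% and 11.1% of the counts of the control KD libraries and 10.6%, 11.8% and 11.8% in Hakai KD. The groups overlapped, since Hakai KD replicate 1 held the lowest share of all 6 libraries and the other Hakai KD libraries the highest. The means were 10.9% ± 0.168 in control KD and 11.4% ± 0.661 in Hakai KD (SD, n = 3 each), and this sum over chosen genes was not tested. Large subunit genes made 6.59% ± 0.106 and 6.86% ± 0.425 of the counts, and small subunit genes 4.33% ± 0.0586 and 4.54% ± 0.239. The share is relative to the other RNAs, and in bulk RNA fewer cells of a type and less RNA per cell cannot be told apart. Transcripts of the mitochondrial genome varied between libraries, at 2.24%, 3.62% and 3.80% of counts in control KD and 3.97%, 3.22% and 3.34% in Hakai KD. With them left out of the total, the ribosomal protein share was 11.3% ± 0.248 and 11.8% ± 0.644.

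**Figure D3:**
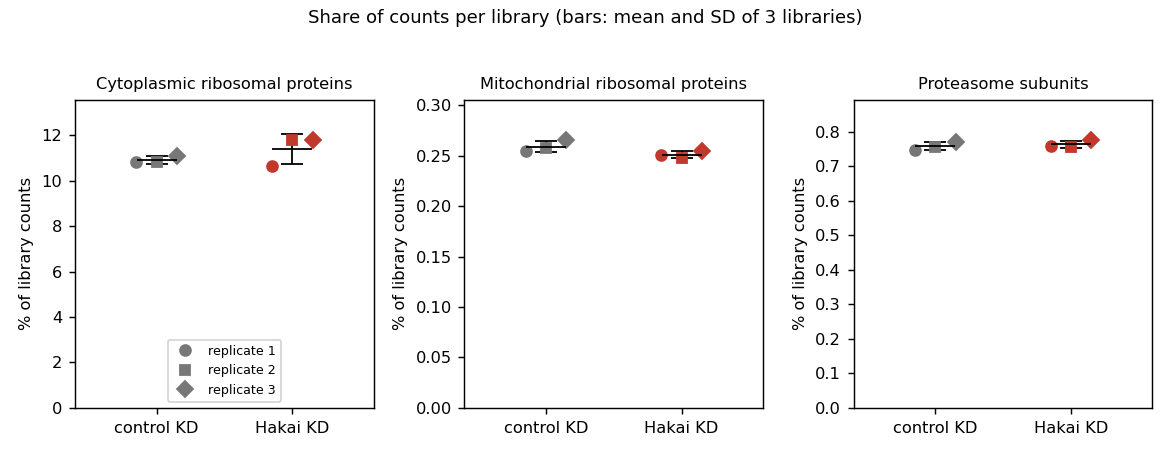
Percent of library counts (vertical axes, from 0) on cytoplasmic ribosomal protein genes, mitochondrial ribosomal protein genes and proteasome subunit genes in control KD (grey) and Hakai KD (red), with 1 point per library and bars for the mean and SD of 3 libraries. The cytoplasmic share of 2 Hakai KD libraries is 11.8% and that of the other is 10.6%, while control KD lies between 10.8% and 11.1%.

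The large subunit gave 15 of the 21 rises, from 45 genes (33.3%), and the small subunit 6 from 33 (18.2%), beside 7.58% of all genes tested. With single libraries left out, these counts ran from 0 to 23 and from 1 to 16, beside 4.16% to 6.61% of all genes. The medians of the log2 fold change were 0.084 and 0.085. Within the large subunit the genes ranged more widely, from -0.13 to 0.37 with 12 below 0, whereas the small subunit ran from -0.067 to 0.24 with 1 gene below 0. The difference between subunits was not tested.

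RpL8, a protein beside the peptidyl transferase centre, had the largest log2 fold change of all members. The gene is on chromosome arm 3L, from 2587456 to 2588883 in BDGP6 coordinates. Control KD held 23038, 26631 and 25568 normalized counts and Hakai KD 27639, 34229 and 35237. All Hakai KD libraries were above all controls, replicate 1 by the smallest margin. The log2 fold change was 0.37 (SE 0.081, edgeR adjusted p = 0.011).

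Proteins of the exit tunnel and its rim included several of the genes that rose. Of 9 genes listed in this group, RpL19 and RpL31 were not matched. Among the 7 tested, RpL4, RpL17, RpL23A and RpL26 rose, and RpL22, RpL35 and RpL39 did not pass the test. The 4 make 57.1% of the 7, beside 26.9% of all members tested and 7.58% of all genes. The list was chosen with earlier results of these data known, and the group was not tested as a set. The group's median log2 fold change was 0.30. RpL4 and RpL17 reach into the tunnel and form its narrowest point, whereas RpL23A and RpL26 sit where the chain leaves, RpL23A as a docking site of the signal recognition particle.

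For RpL4 (3R, 27922821 to 27924888) the control KD libraries had 24433, 27343 and 27136 normalized counts and the Hakai KD libraries 28315, 33895 and 35345. The groups did not overlap, and the log2 fold change was 0.31 (SE 0.073, edgeR adjusted p = 0.016). RpL17 (X, 6741537 to 6744238) went from 10291, 11444 and 11813 to 11874, 15050 and 15019. Its replicate 1 of Hakai KD was barely above the highest control, and the log2 fold change was 0.32 (SE 0.081, edgeR adjusted p = 0.021). RpL26 (3L, 18898875 to 18900408) had 10821, 12352 and 12562 in control KD and 13126, 15297 and 15571 in Hakai KD. Here too the groups were apart, with a log2 fold change of 0.30 (SE 0.068, edgeR adjusted p = 0.013).

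RpL23A falls outside the naming rule because its groups overlapped, and it was chosen after its values were seen. The gene (3L, 1666288 to 1668654) had 23768, 27511 and 29163 normalized counts in control KD and 29013, 35509 and 37229 in Hakai KD, so that Hakai KD replicate 1 lay just under control KD replicate 3. Its log2 fold change was nevertheless the second largest, at 0.34 (SE 0.089, edgeR adjusted p = 0.025). Its exons overlap Uhg7 on the same strand and CG7974 on the other, which had means of only 21.3 and 299 normalized counts in control KD.

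RpL39, a small protein that lines the lower tunnel, went the other way without passing the test. It had a log2 fold change of -0.050 (SE 0.043, edgeR adjusted p = 0.47), with overlapping groups. RpL35, at the exit, had 21447, 22302 and 22508 normalized counts in control KD and 22725, 24758 and 24563 in Hakai KD. Its groups did not overlap, but its log2 fold change of 0.12 did not pass the test (adjusted p = 0.066). RpL22, whose fly protein carries a long N-terminal extension not found in mammals, had the largest standard error of all members. It had 1332, 1484 and 1499 in control KD and 1165, 1683 and 2015 in Hakai KD, so that its Hakai KD libraries were both the lowest and the highest, with a log2 fold change of 0.17 (SE 0.14, edgeR adjusted p = 0.45).

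RpL13A and RpL24 completed the genes named for the size of their rise. RpL13A, known in human cells for a second role in translational control outside the ribosome, lies on 3R from 5624474 to 5625947. Control KD held 14523, 16231 and 16564 normalized counts and Hakai KD 17137, 20665 and 21296. Groups did not overlap, and the log2 fold change was 0.32 (SE 0.074, edgeR adjusted p = 0.014). RpL24, which forms a bridge to the small subunit, lies on 2L from 13393687 to 13395131. It went from 9872, 10832 and 11145 to 11550, 13149 and 13601, again without overlap, a log2 fold change of 0.27 (SE 0.060, edgeR adjusted p = 0.013).

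The stalk, which recruits the GTPases of translation, consists of RpLP0 at its base and of the acidic proteins RpLP1 and RpLP2. Of the 3 mRNAs, 1 rose. RpLP2 (2R, 16586129 to 16586732) rose, from 19051, 19780 and 19528 normalized counts to 19845, 24561 and 25649. Replicate 1 of Hakai KD was just above the controls and the other libraries far above them, for a log2 fold change of 0.26 (SE 0.074, edgeR adjusted p = 0.034). RpLP1 (2L, 419952 to 420864) had 31888, 33946 and 34550 in control KD and 33638, 39435 and 39060 in Hakai KD. These groups overlapped, and the log2 fold change of 0.16 did not pass the test (SE 0.058, edgeR adjusted p = 0.086). RpLP0 (3L, 22075867 to 22077487) had 24504, 24967 and 24927 in control KD and 23898, 25633 and 25668 in Hakai KD, a log2 fold change of 0.015 (SE 0.037, edgeR adjusted p = 0.83), with Hakai KD libraries on both sides of the controls. No difference between the 3 genes was tested.

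RpL5 and RpL11 bind the 5S rRNA and, in mammals, restrain the p53 regulator Mdm2 when ribosome assembly fails. Neither passed the test. RpL5 (2L, 22532279 to 22536884), the member with the most counts, had 95171, 88920 and 91155 normalized counts in control KD and 89578, 96954 and 93688 in Hakai KD. The libraries of both groups were interleaved, at a log2 fold change of 0.026 (SE 0.042, edgeR adjusted p = 0.73). RpL11 (2R, 19442342 to 19443825) had 34336, 34886 and 35258 against 34709, 37821 and 38177, with overlap, and a log2 fold change of 0.084 (SE 0.041, edgeR adjusted p = 0.20).

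The small subunit genes that rose included RpS2, RpS5a, RpS6, RpS7 and RpS19a, each without overlap between groups. RpS6, the classical substrate of S6 kinase, was called higher under every setting tried, including each omission of a library. It lies on X from 7899624 to 7901331 and had 19597, 20105 and 20387 normalized counts in control KD and 21744, 24736 and 24336 in Hakai KD. Even the lowest Hakai KD library was above all controls, and the log2 fold change was 0.24 (SE 0.047, edgeR adjusted p = 0.0065). RpS5a (X, 17143588 to 17148264), which lies on the head of the subunit, hosts 14 of the snoRNA genes in the files, the most of all members. It had 23954, 24559 and 24637 in control KD and 26189, 29175 and 28677 in Hakai KD. The groups were again apart, with a log2 fold change of 0.20 (SE 0.043, edgeR adjusted p = 0.0095). The log2 fold changes of RpS2, RpS7 and RpS19a were 0.21, 0.20 and 0.20, with edgeR adjusted p-values of 0.025, 0.016 and 0.015.

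RpS3, which lines the mRNA entry of the small subunit and also takes part in DNA repair, had 56183, 57103 and 57166 normalized counts in control KD (3R, 23358812 to 23360207). In Hakai KD it had 58147, 64567 and 64096, all above the controls, but its log2 fold change of 0.13 (SE 0.043) did not pass the test (edgeR adjusted p = 0.062). The sta gene encodes the fly counterpart of the mammalian laminin receptor precursor, RPSA, and lies on X from 1481797 to 1483413. It had 28563, 31004 and 31004 in control KD and 29930, 35997 and 37191 in Hakai KD. Replicate 1 of Hakai KD fell among the controls, and the log2 fold change was 0.19 (SE 0.069, edgeR adjusted p = 0.094).

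RpS27A and RpL40 are each made as a fusion with ubiquitin, and so also supply cells with ubiquitin. RpS27A (2L, 10408352 to 10410456) had 33136, 32894 and 33592 normalized counts in control KD and 32848, 34801 and 34181 in Hakai KD. RpL40 (2L, 4227699 to 4228561) had 15372, 15189 and 15828 against 15030, 15622 and 15547. In both the groups overlapped, and the log2 fold changes of 0.032 (SE 0.035, edgeR adjusted p = 0.58) and -0.006 (SE 0.033, edgeR adjusted p = 0.93) were within about 1 standard error of 0. Their sign depended on the normalization.

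The 13 members with values below 0 were, except for RpS15Ab, all of the large subunit. Of them, RpL15, RpL30, RpL29 and RpL3 had the most negative log2 fold changes and were chosen after their values were seen. RpL15 (3L, 27267255 to 27268445) had 30801, 29484 and 29983 normalized counts in control KD and 26847, 29071 and 27770 in Hakai KD. It was the only tested member with all Hakai KD libraries below all controls, at a log2 fold change of -0.11 (SE 0.038, edgeR adjusted p = 0.078). RpL30 (2L, 19008031 to 19009306) had 10642, 11076 and 11969 against 9481, 10988 and 10300, with overlap, at -0.13 (SE 0.055, edgeR adjusted p = 0.14). RpL29 and RpL3, the latter a core protein near the catalytic centre, had log2 fold changes of -0.078 and -0.074 and did not pass (adjusted p = 0.20 and 0.28). DESeq2 called RpL15 lower with an adjusted p of 0.036. With voom after cyclic loess normalization, which takes out trends with expression level, these 4 genes were called lower and 13 members higher, beside 8.09% and 6.98% of all genes.

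Several ribosomal proteins have a second gene copy, often used in the germline. In S2R+ cells most pairs were expressed very unequally, but RpL34a made 35.5% and RpS14b 32.7% of the counts of their pairs in control KD. RpL10Aa and RpS28a had 0 counts in every library, which allows up to 3 counts in each, or 0.174 to 0.187 CPM. How reads that match several genes were counted is not given, so that a count of 0 need not mean no expression. RpL37-2 had 4 counts in all, 1, 1 and 2 in control KD and none in Hakai KD. RpS10a had 0, 1 and 3 counts in control KD and 2, 1 and 3 in Hakai KD. RpS5b had 7, 5 and 6 against 13, 7 and 7. These 5 copies were below the minimum for testing and so have no call, whereas RpL10Ab, RpS28b, RpL37-1 and RpS5a, their abundant partners, all did; the partner of RpS10a, RpS10b, was not analysed here. RpL37-1 (X, 15137870 to 15139367) rose, from 35036, 37008 and 38424 to 38992, 43021 and 42848 normalized counts (log2 fold change 0.18, SE 0.048, edgeR adjusted p = 0.028). RpL10Ab and RpS28b were at -0.016 and 0.015 (adjusted p = 0.85 and 0.84).

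In the 4 pairs with both copies tested, the less abundant copy made a smaller part of the pair in every Hakai KD library than in every control. For RpS19b this gap was negligible, at 4.555% in control KD replicate 3 and 4.552% in Hakai KD replicate 1. Such shares were not computed for gene pairs outside the members. RpL34a, the minor copy of its pair, made 36.4%, 34.8% and 35.4% of the counts in control KD and 33.8%, 30.7% and 30.4% in Hakai KD. It stayed at 5096 ± 120 and 5102 ± 179 normalized counts (SD, n = 3 each), at a log2 fold change of 0.002 (edgeR adjusted p = 0.98). RpL34b (3R, 9400237 to 9401226) rose from 8698, 9559 and 9521 to 9588, 11660 and 12019, a log2 fold change of 0.26 (SE 0.072, edgeR adjusted p = 0.031). RpS14b, which adjoins its twin RpS14a on X, made 32.6%, 33.4% and 32.3% of its pair in control KD and 31.7%, 32.0% and 30.8% in Hakai KD. Neither twin passed the test, with log2 fold changes of 0.16 for RpS14a and 0.079 for RpS14b (adjusted p = 0.064 and 0.32). RpS15Ab and RpS19b were minor copies, with shares of 6.05% ± 0.0747 and 4.66% ± 0.0997 in control KD and 5.61% ± 0.264 and 4.28% ± 0.267 in Hakai KD (SD, n = 3 each). Of these 2 pairs, RpS19a rose, and RpS15Aa (log2 fold change 0.048), RpS15Ab (-0.067) and RpS19b (0.069) did not pass. The exact two-sided permutation test gave p = 0.10 for each of the 4 pairs, also after Benjamini-Hochberg adjustment over them, which is the smallest value that 3 against 3 libraries allow. Copies of a pair can be nearly identical, so that the split of reads between them is uncertain.

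Levels differed far more between members than between conditions. Per kilobase of exonic length, control KD levels of the tested members had a median of 1342 CPM, with quartiles of 989 and 1965, and the highest was 72.05 times the lowest. The most abundant were RpL41 at 4177 ± 279, RpL23 at 4166 ± 303 and RpL21 at 4060 ± 102 CPM per kilobase (SD, n = 3), which did not differ from each other beyond their spread. The least abundant were RpS19b at 58.0 ± 2.20, RpL22 at 78.4 ± 5.04 and RpS15Ab at 93.2 ± 1.92. RpL41, which encodes the shortest protein of all members, with 25 residues, had a log2 fold change of -0.053 (edgeR adjusted p = 0.53), RpL23 of 0.16 (adjusted p = 0.10) and RpL21 of 0.014 (adjusted p = 0.85), with overlapping groups in all. Thus none of the 3 genes with the highest levels passed the test. Across the 78 members, the log2 fold change had a Pearson correlation of -0.17 and a Spearman correlation of -0.29 with the level per kilobase in control KD, a description over genes of the same libraries.

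Genes with longer coding regions made most of the rises. The median coding length of the tested members was 465 nt. Of the 41 members at or above it, 17 rose (41.5%) and the median log2 fold change was 0.17. Of the 37 shorter members 4 rose (10.8%) and the median was 0.060. By comparison, 7.58% of all genes tested rose, and 12.6% of other genes with mean normalized counts of 1000 or more. Across members, the log2 fold change and the logarithm of coding length had a Pearson correlation of 0.33 and a Spearman correlation of 0.32 (n = 78). Over the 7223 other coding genes tested, the same Pearson correlation was 0.03. These correlations are across genes of the same 6 libraries, genes are not independent replicates, and the contrast was found in these data. The mean normalized count had a Pearson correlation of 0.01 with the log2 fold change among members. Members are short among fly genes, with a median exonic length of 901 nt beside 1409 nt for all genes in the files. After a correction of each library for exonic length, 34 members were called higher and none lower by edgeR, beside 8.52% and 8.96% of the genes that could be corrected.

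**Figure D4:**
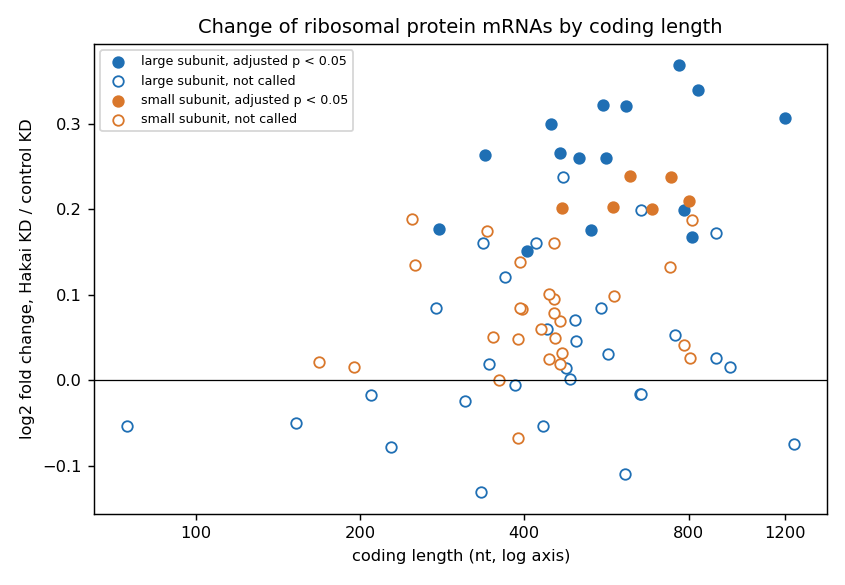
Log2 fold change, Hakai KD over control KD (vertical axis), of the 78 ribosomal protein mRNAs tested against coding length in nt (horizontal log axis), in blue for the large and orange for the small subunit. Filled points are genes with an adjusted p under 0.05, of which 17 lie at or above the median coding length of 465 nt and 4 below it.

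Ribosomal protein genes are spread over the genome. The share of tested members that rose was 42.9% on X, 38.9% on 3R, 30.8% on 3L and 12.5% on 2L and on 2R. The X chromosome holds 15 of the 88 members. All 14 that were tested there had a log2 fold change above 0, with a median of 0.17, and 6 rose, namely RpL7A, RpL17, RpL37-1, RpS5a, RpS6 and RpS19a. Of all 1341 genes tested on X, 8.80% rose and the median was 0.020. On 3R 7 of 18 tested members rose, on 3L 4 of 13, and on 2L and 2R 2 of 16 each. RpS3A, the only member on chromosome 4, had a log2 fold change of 0.026 (edgeR adjusted p = 0.66). These groups were described after the values were seen and were not tested against each other.

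Many members carry snoRNA genes within their span. Of the genes in the files, 74 snoRNAs lay within 29 of the 88 members on the same strand. Some of them overlap exons, as in RpL3, RpL13A, RpL28 and RpS6. Of the 27 hosts tested, 9 rose (33.3%), and of the 51 others 12 rose (23.5%), beside 7.58% of all genes tested. The median log2 fold changes of hosts and others were 0.084 and 0.085. Exons of 25 tested members overlap another gene in the files, and of these 8 rose (32.0%), beside 13 of the 53 without such overlap (24.5%). Idh3g, which overlaps RpL27 on the other strand, averaged 2252 normalized counts over the controls, against 25365 for RpL27.

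The proteins that build ribosomes were read from a list of 25 genes. Of these, 6 rose (24.0%), 19 did not pass and none fell, and the median log2 fold change was 0.049. Over all genes tested, 7.58% rose and 7.72% fell. By DESeq2, too, none of them was called lower, and 8 of 25 passed an unadjusted p under 0.05 by edgeR, a share close to the 29.8% of all genes. The largest value was that of eIF6, which keeps large subunits from joining small ones too early. Control KD held 989, 1043 and 1058 normalized counts and Hakai KD 1202, 1269 and 1336, well apart, at a log2 fold change of 0.30 (SE 0.046, edgeR adjusted p = 0.0016). The others were nop5, a core protein of box C/D snoRNPs (0.20, adjusted p = 0.0076), Nop60B, the pseudouridine synthase of box H/ACA snoRNPs (0.12, adjusted p = 0.022), and Nopp140, a nucleolar chaperone (0.13, adjusted p = 0.031). Mat89Ba, of the small subunit processome (0.17, adjusted p = 0.038), and Tif-IA, which brings RNA polymerase I to the rRNA genes (0.11, adjusted p = 0.037), completed them. Scaling by library size alone left 2 called higher, beside 4.79% of all genes. Whichever library was left out, 3 of the 25 were called higher, and eIF6 and nop5 were among them each time.

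Among 11 known regulators of ribosomal protein synthesis or of the response to its failure, Xrp1 rose and Thor fell. Over all genes tested, 7.58% rose and 7.72% fell, close to the 9.09% that 1 of 11 makes. Without Hakai KD replicate 3, 3 of the regulators were called higher, beside 6.61% of all genes. Xrp1 encodes a transcription factor that slows growth in cells short of ribosomal proteins. Its normalized counts were 15555, 14911 and 15063 in control KD and 17093, 17232 and 16913 in Hakai KD, without overlap, at a log2 fold change of 0.17 (SE 0.032, edgeR adjusted p = 0.0050). Thor, the 4E-BP that restrains cap-dependent translation, had 493, 405 and 436 against 315, 408 and 342. Here the groups overlapped by 1 library, at -0.32 (SE 0.097, edgeR adjusted p = 0.044), and the call was lost without control KD replicate 1 or 3 or Hakai KD replicate 1 or 3. Myc, which drives ribosome production, had 2235, 2687 and 2585 in control KD and 3712, 3524 and 2502 in Hakai KD. Its Hakai KD replicate 3 lay among the controls, and its log2 fold change of 0.38 (SE 0.12) did not pass the test (edgeR adjusted p = 0.052).

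Other protein machines were compared with ribosomal proteins in the same fit. Of 70 mitochondrial ribosomal protein genes tested, none rose and 2 fell, with a median log2 fold change of -0.007. Over all genes tested, 7.58% rose and 7.72% fell. At an unadjusted p under 0.05, 5 of the 70 passed by edgeR, beside 29.8% of all genes. Their median level was 493 normalized counts, beside 21891 for the cytoplasmic members, so that a small change is harder to call. None of the mitochondrial ribosomal protein genes was called higher under any other setting, DESeq2 included. Of 33 proteasome subunit genes tested, 4 rose, or 12.1%, and 2 fell, with a median of 0.045. Among those not tested were Prosalpha1 and Prosalpha1R, with 0 counts in every library. Among genes other than members with mean normalized counts of 1000 or more, 12.6% rose. Without control KD replicate 2 only 1 rose and without control KD replicate 3 7 did, beside 4.16% and 5.85% of all genes. With the length correction 8 were called higher and with the block as well 9, beside 8.52% and 7.51% of the genes corrected. By library size alone 2 were, beside 4.79% of all genes. The mitochondrial ribosomal proteins made 0.259% ± 0.00577 of control KD counts and 0.251% ± 0.00346 of Hakai KD counts, and the proteasome 0.759% ± 0.0118 and 0.764% ± 0.0103 (SD, n = 3 each), with overlapping groups in both. Of 8 genes of translation elongation and related mRNAs, such as eEF2, Tctp and Rack1, none was called by edgeR, while 2 had an unadjusted p under 0.05, beside 29.8% of all genes. Of these 8, 1 was called higher by DESeq2, by voom, with the length correction, without the filter, with the replicate block, and without Hakai KD replicate 1 or 3, and cyclic loess called 1 lower. Their median log2 fold change was 0.050.

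With all 6 libraries, the count of members called higher ranged from 13 to 34, as the plot of calls by setting shows. It was 21 by the likelihood ratio test, 22 by voom, 22 with DESeq2 size factors and 20 with TMM factors taken from the other genes, beside 7.95%, 7.68%, 7.62% and 7.54% of all genes. With upper quartile factors 19 were called higher, beside 6.73%, and 22 where every library had to reach 10 counts, beside 8.05%. Scaling by library size alone gave 18 higher and 2 lower, beside 4.79% and 11.8%, and no filter on low counts gave 33 higher and 2 lower, beside 4.98% and 5.15%. A block for the replicate number left 32 called higher, beside 7.63%, and with block and length correction 33, beside 7.51%. Without replicate 1 of both groups, 38 were called higher, beside 4.91%. In all fits that used every library, 11 members were called higher, namely RpL4, RpL6, RpL8, RpL13A, RpL18, RpL24, RpL26, RpS5a, RpS6, RpS7 and RpS19a. The members called lower by library size alone and without the filter were RpL15 and RpL30 in both cases.

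**Figure D5:**
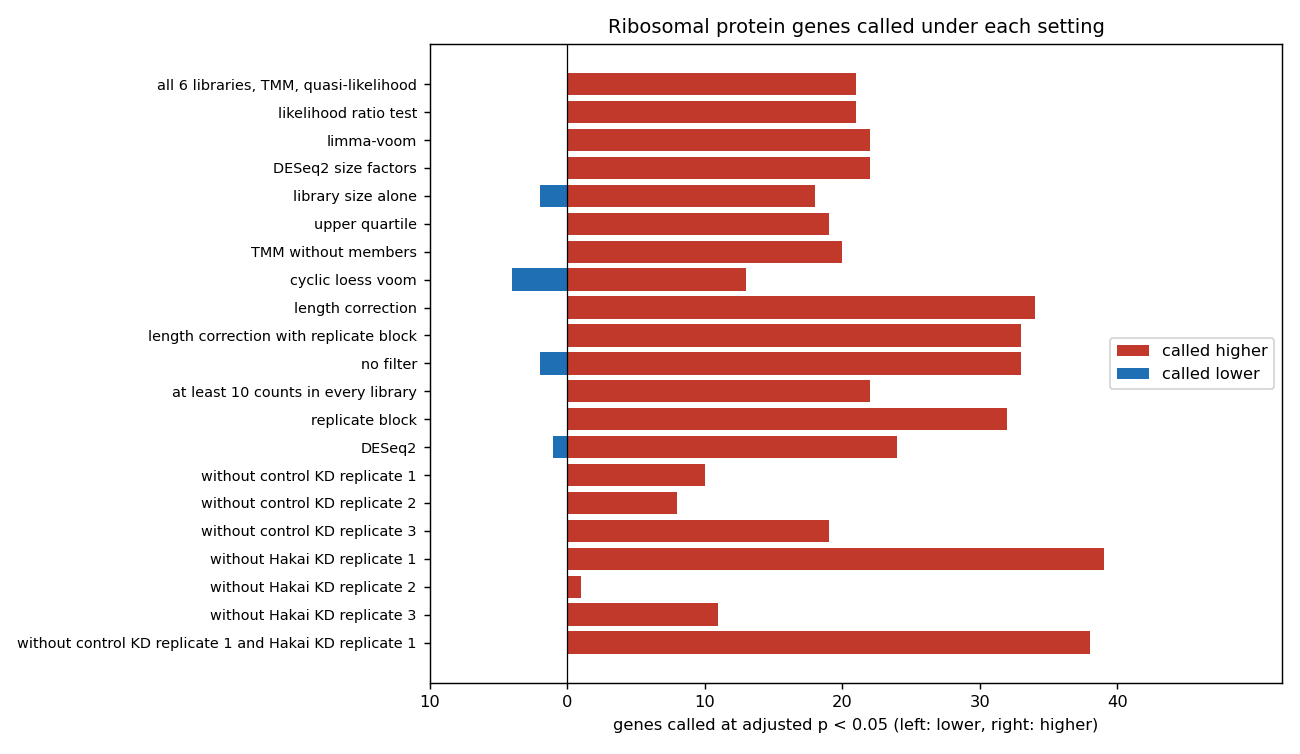
Number of cytoplasmic ribosomal protein genes called at an adjusted p under 0.05 (horizontal axis, higher to the right and lower to the left) under each processing setting. The count of genes called higher is 21 with all libraries, TMM and the quasi-likelihood test, and between 1 and 39 when single libraries are left out.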

How the data were processed

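Poly(A) RNA of S2R+ cells was sequenced by the authors as single reads of 85 bp from a directional kit and mapped with STAR to Ensembl release 90 (BDGP6). Reads per gene were counted with featureCounts. The authors deposited raw counts, 1 table per library, without normalization or pooling. According to the submitters' processing notes the versions were STAR 2.5.1b and featureCounts 1.5.1. The strand setting and the treatment of reads with several positions are not given in the sources used here.

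Symbols, coordinates and lengths came from Ensembl release 115 (same assembly), which held 17253 of the identifiers and lacked 306. Counts were tested with edgeR 4.0.16 under R 4.3.3 (filterByExpr with a minimum count of 10 and a minimum total of 15, TMM, quasi-likelihood test without covariates, Benjamini-Hochberg adjustment over all 7811 genes tested, call at an adjusted p under 0.05). The SE was taken from the size of the log2 fold change over the root of its F statistic. Normalized counts are counts divided by effective library size and multiplied by its mean. Alternatives used DESeq2 1.42.0, limma 3.58.1 (voom), other normalizations, filters, a length correction, a replicate block and the omission of libraries. The main edgeR fit was tested on simulated data, and the alternatives were not.

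Genes were named by rule: the 6 with the largest changes in each direction among called members without overlap, the 3 highest levels, genes chosen by role, and duplicated genes. Members and lists were chosen with earlier results of these data known. Limits from counts of 0 cover counting error only. No sequences are shown, and promoter motifs were not analysed here. One tested member is included in the counts but not reported here by itself.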

Additional observations from a re-analysis of the deposited data

How the results depend on the processing

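The count of members called higher (21) stayed within 1.5 times under the likelihood ratio test, voom, DESeq2, other scaling factors and a minimum of 10 counts in every library. The genes were not all the same, as DESeq2 kept 16 of the 21, lost 5 and added 8. The likelihood ratio test kept 19, lost 2 and added 2. It was 13 after cyclic loess normalization, 34 after the length correction, 33 without the filter on low counts and 38 without replicate 1 of both groups, a setting chosen after seeing the data. For the large subunit (15) cyclic loess gave 9 and the omission of both replicates 1 gave 23. For the small subunit (6) the length correction gave 14, no filter 13, DESeq2 10 and the omission of both replicates 1 gave 15. Members called lower (0) were 4 after cyclic loess, 2 by library size alone, 2 without the filter and 1 by DESeq2. No label says that a replicate number marks a shared batch, and deviations of same-numbered libraries correlated at -0.076, -0.033 and -0.075 over all genes, so that the numbers were not taken as pairs. Over the 78 members alone these correlations were 0.63, 0.26 and 0.27, but control KD replicate 2 correlated at 0.66 with Hakai KD replicate 3, so that not every library went best with its own number. With the replicate block 32 members were called higher, 12 of them of the small subunit. The 32 included RpL23, RpLP1, sta, RpS3 and RpS14a, which did not pass in the same fit without it (adjusted p = 0.013, 0.019, 0.018, 0.037 and 0.025 by edgeR with the replicate block). With the block and the length correction the counts were 33 and 13. Leaving out each library in turn gave between 1 and 39 members called higher, 0 and 23 for the large and 1 and 16 for the small subunit, and 708 to 1014 of all genes (1195). Without both replicates 1, 754 of all genes were called. The rise of the share of counts by 0.487 percentage points was 0.757 with effective library sizes and between 0.293 and 0.868 with libraries left out. The median log2 fold change of members stayed above 0 throughout, from 0.038 to 0.13.

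Among the named genes, signs turned in those near 0 and, without Hakai KD replicate 3, in RpL22. With library size alone, which shifted the median of all genes to -0.035, RpL21, RpLP0, RpS27A, RpL5, RpS28b and RpL34a were at -0.021, -0.020, -0.0036, -0.0098, -0.020 and -0.033. With cyclic loess these were -0.054, -0.042, -0.030, -0.052, -0.053 and -0.027, and RpS15Aa was at -0.0038. RpL34a was at -0.0088 with upper quartile factors and -0.0039 without the filter. RpL40 was at 0.0092 with the length correction, with and without the replicate block, and at 0.0069 without both replicates 1, where RpL10Ab was at 0.0093. With single libraries left out, values ran from -0.0038 to 0.055 for RpL5 (0.082 without both replicates 1), -0.021 to 0.030 for RpL34a, -0.018 to 0.054 for RpS28b, -0.0084 to 0.041 for RpL21, -0.014 to 0.36 for RpL22, -0.018 to 0.011 for RpL40, -0.044 to 0.021 for RpL10Ab, -0.092 to 0.0027 for RpL41 and -0.0041 to 0.049 for RpLP0. The cause was not tested. The promoter motif shares were not run. The smallest rise of a member called in the report was 11.0%, and smaller ones passed under some alternatives. The depth was high, as 69 members had at least 10000 normalized counts.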
